A study of Drosophila melanogaster with 3 samples.

Results

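Contacts of FMRP, the fly fragile X protein, were examined on the RNAs of 9 stress-response regulators: the JNK pathway genes kay, Jra, bsk and puc, the unfolded-protein and integrated stress response genes Xbp1 and crc, the related transcription factor gene Atf3, and the oxidative stress genes cnc and Keap1. The genes were taken by name from a list of known regulators, whether or not they had contacts, out of 13959 protein-coding genes of the gene table. They were chosen with earlier results of these data known, so they are not a blind sample. The study mapped FMRP by enhanced CLIP, in which RNA crosslinked to a protein by ultraviolet light is recovered with that protein and sequenced. It had 2 libraries of FMRP pulled down on FLAG beads and 1 library of size-matched input, each from 200 whole adult flies (100 males and 100 females) of Drosophila melanogaster. By label, the pull-downs represent intestinal progenitor cells and the input all cells. The labels name no genotype, age in days, transgene or driver, so the cells in which the tagged protein was made are not given in the labels. The values come from 2 lists that cover the series as a whole, 60497 sites of 1 nt with a score each and 1829 target gene names. No value per library was used, so there are no replicates, depth is unknown, no test was run, and a gene without sites is one that the list does not hold, not one shown to be free of FMRP.

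JNK is a kinase switched on by stress and injury. It acts through AP-1, a pair of bZIP transcription factors encoded by kay (Fos) and Jra (Jun), and AP-1 in turn drives puc, a phosphatase that shuts JNK off. In the unfolded-protein response, the endoplasmic reticulum sensor Ire1 splices the Xbp1 mRNA so that the active factor can be made, and kinases that phosphorylate eIF2alpha favour translation of crc, the fly ATF4. cnc encodes the fly Nrf2, which turns on antioxidant genes and is held in check by Keap1. In the fly midgut, JNK, Xbp1 and the Nrf2-Keap1 pair are known to influence how often intestinal stem cells divide.

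Of the 9 genes, 6 were on the target list (66.7%, exact Clopper-Pearson 95% interval 29.9 to 92.5), whereas 11.2% of all protein-coding genes were. The 9 genes were picked by hand and not blind to these data, and the background is not matched to them by span. The interval does not cover either limit. The targets were kay, puc, Xbp1, crc, Atf3 and cnc. bsk, Jra and Keap1 were not on the list. A site lay in the span of 7 genes, against 16.4% of protein-coding genes, and at least 3 sites in that of 6 genes, against 12.7%. Expression was not used here, so the background may include genes that adult flies do not express. The spans held 252 sites, of which 250 lay on the strand that carried most sites of their gene (99.2%). The gene table gives no strands, so all counts below are for that strand, upstream and downstream are read along it, and whether it is the gene's own strand was not checked.

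**Figure D1:**
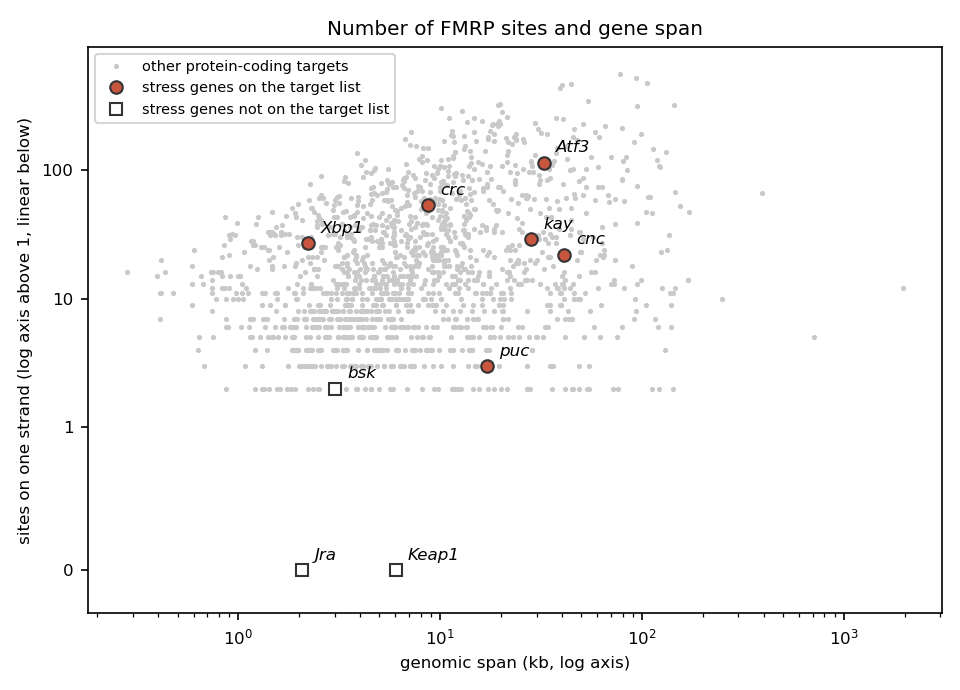
Number of FMRP sites (y axis) against genomic span in kb (x axis, log) for the 9 stress-response genes and, in grey, the other protein-coding targets that held a site. Xbp1 stands among the short genes with 27 sites, Atf3 among the long ones with 114, and Jra and Keap1 lie at 0.

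Site number ran from 0 to 114. Atf3 had 114 sites over a span of 32.5 kb, more than 93.1% of protein-coding targets with a site. crc had 53 sites over 8.66 kb, kay 29 over 28.1 kb, Xbp1 27 over 2.21 kb and cnc 22 over 41.1 kb. puc had 3 sites over 17.0 kb and bsk 2 over 3 kb. The median protein-coding target with a site had 16 (quartiles 7 and 41), so 5 of the 6 targets lay above that median and puc lay far below it. The median over the 6 targets was 28.

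Per kb of span the order was another one. Xbp1 came first with 12.2 sites per kb, above 88.5% of targets, and crc followed with 6.12, above 74.1%. Atf3 had 3.50 sites per kb, kay 1.03, bsk 0.667, cnc 0.535 and puc 0.177. The median over protein-coding targets was 2.53 (quartiles 0.990 and 6.26). Xbp1, crc and Atf3 were thus above the typical density and kay, cnc and puc below it. Spans include introns, and exonic lengths were not used here, so a long intron lowers these densities.

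Genes of like span, from 80% to 125% of a member's own, give a second yardstick. Of 2479 genes as long as Xbp1, 5.85% were targets and 9.40% held a site, with a median of 5 sites among those that did. Xbp1 had 27, more than 81.4% of the targets of its size. The share of targets was higher among genes as long as puc (28.3%), crc (28.4%), kay (28.6%), Atf3 (30.4%) and cnc (34.9%). These shares were all above the 11.2% of all protein-coding genes. Among genes as long as Jra, bsk and Keap1 the share was 5.46%, 10.4% and 21.8%. Jra, of nearly the same length as Xbp1 at 2.08 kb, had none, as did most genes of its size (9.11% held a site). Keap1, at 6 kb, belonged to a class in which 29.6% of genes held a site. Among targets of like span, Atf3 had more sites than 85.0%, crc than 75.2%, cnc than 48.5%, kay than 48.1% and puc than 3.33%.

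The genes of JNK and its phosphatase showed few contacts. bsk, the gene of JNK, had a site at 10248410 and another at 10248439 on the minus strand of 2L, with scores of 0.623 and 2.69. The score was computed by the authors and carries no stated unit. It serves here to rank sites within the list, whose median was 2.78 with quartiles of 1.08 and 6.39. Both bsk sites were below that median. bsk was not a target, as was the case for 178 of the 235 protein-coding genes with 2 sites in their span.

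puc, the JNK phosphatase and feedback inhibitor, was a target with a single run of 3 sites. They lay on neighbouring bases, 8121984 to 8121986 on the plus strand of 3R, at 98.2% of the span. Their scores were 0.277, 0.401 and 0.297, all in the lowest 25% of the list. Only 6 of the protein-coding targets with a site had a lower highest score than puc. Of the 143 protein-coding genes with 3 sites in their span, 39.2% were targets (31.1 to 47.7), and 2 of those 56 targets had a lower highest score.

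The place of bsk and puc near the edge of the target list can be read from the list itself. None of the 273 protein-coding genes with 1 site was a target. The share was 24.3% with 2 sites (18.9 to 30.2), 39.2% with 3, 57.0% with 4 (47.4 to 66.2) and 72.9% with 5 (62.9 to 81.5). Among genes with 2 sites, the median highest score was 8.13 in the 57 targets and 3.45 in the others, and the highest score of bsk, 2.69, was below both. A highest score lower than that of bsk was found in 13 of the 57 targets and in 76 of the 178 others. The median highest score was 4.07 in targets and 3.565 in other genes with 3 sites, and 4.44 and 3.925 with 4 sites. With 5 sites the order was reversed, at 5.39 in targets and 5.79 in other genes. How the authors turned sites into targets is not stated in the labels.

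Of the AP-1 partners, kay had 29 sites on the plus strand of 3R, and Jra had none, also none within 2000 nt on either side. The sites of kay fell into 2 groups. A first group of 3 lay between 29773000 and 29773036, at 24.9% of the span and just beyond, with scores from 1.26 to 2.98. The other 26 lay between 29791867 and 29794085, at 92.0% to 99.9% of the span.

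The downstream group of kay held its highest-scoring sites. The highest score, 12.4, was at 29792607, followed by 10.8 at 29792713, 9.43 at 29793930 and 8.43 at 29792887. Each of them ranked above at least 80% of the list. Sites of kay were more scattered than those of the other members with 20 or more sites: 16 clusters resulted when sites at most 20 nt apart were joined, and 10 of its 28 gaps were of 1 nt (35.7%, against 50.2% over protein-coding targets). Its fullest cluster held 6 sites between 29792880 and 29792888.

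**Figure D2:**
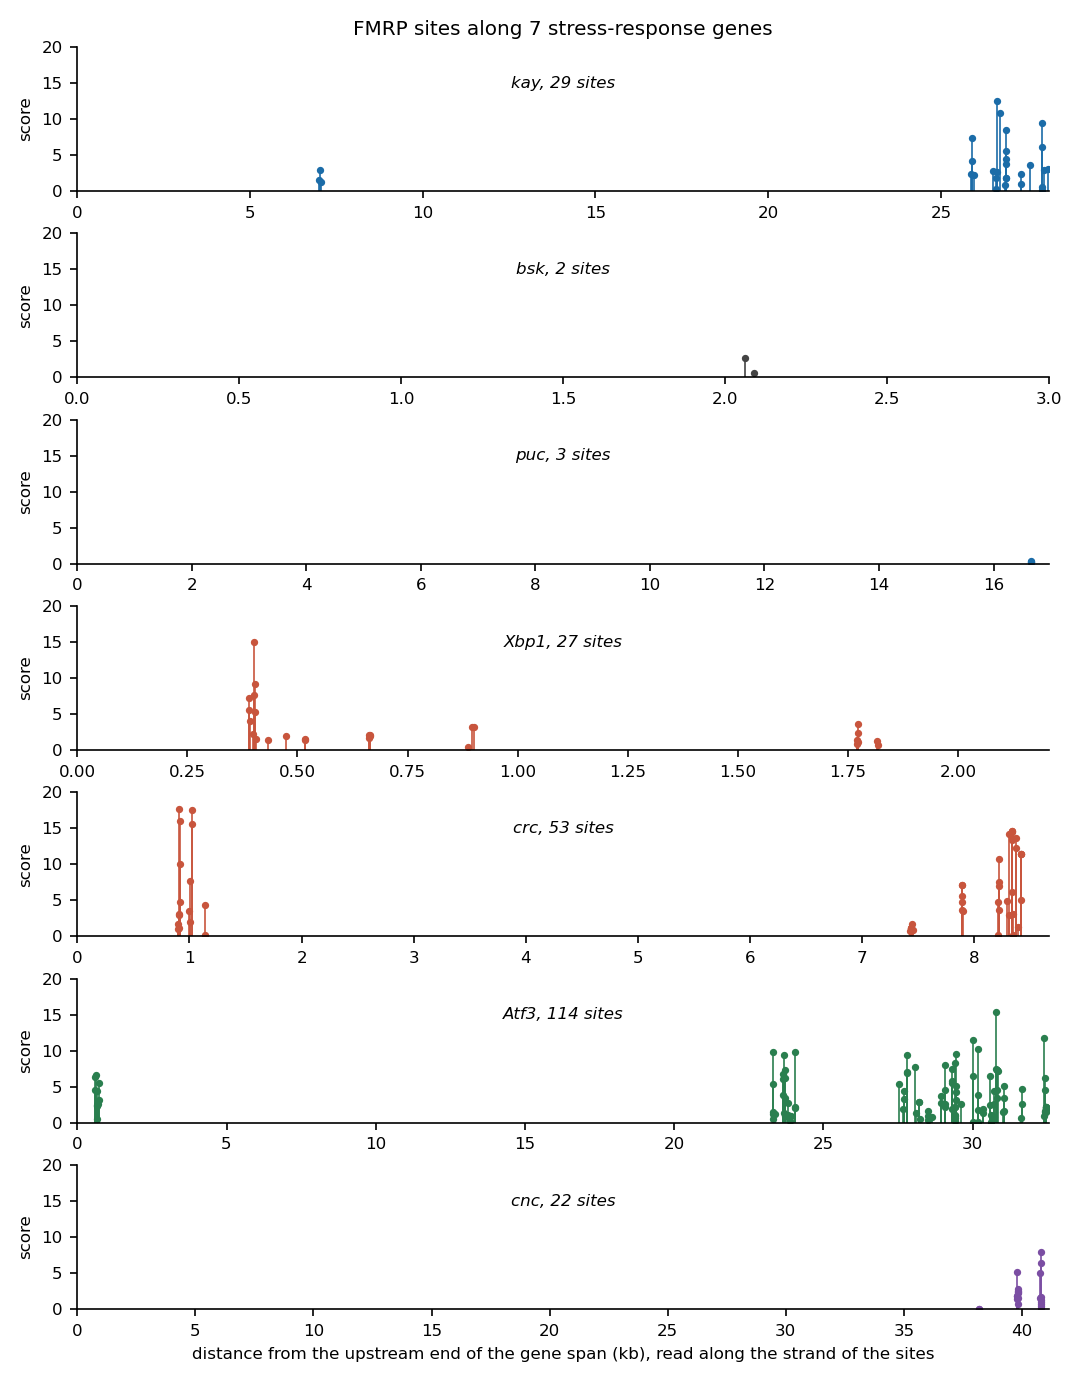
Score of each FMRP site (y axis, same scale in all panels) against its distance in kb from the upstream end of the gene span (x axis, a different length in each panel) for the 7 stress-response genes with sites. Sites of kay, Atf3 and cnc gather at the downstream end, those of crc at both ends, and the strongest sites of Xbp1 at the upstream end.

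Xbp1, the transcription factor of the unfolded-protein response, had sites in both the upstream and the downstream part of its short span. The 27 sites ran from 21143934 to 21145363 on the plus strand of 2R and formed 8 clusters. The fullest, with 9 sites in 17 nt between 21143934 and 21143950, began 389 nt from the upstream end and had a median score of 5.59. It held the highest score of the gene, 15.0 at 21143947, which was above 92.4% of the list. The next bases on either side scored 7.61 at 21143946 and 9.14 at 21143948, so this contact formed a narrow peak. Outside this cluster, no site of Xbp1 scored above 3.56.

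In Xbp1 most sites lay upstream. The first 33.3% of the span held 17 of 27 sites (63.0%, 42.4 to 80.6) and the last 33.3% held 7 (25.9%). This interval, and those below on shares of a gene's sites, treat sites as independent although many lie in runs. Over the 695 protein-coding targets with at least 20 sites, the median share was 13.2% in the first 33.3% of the span and 57.6% in the last, and 97.1% of them had a smaller share in the first part than Xbp1. The weaker downstream sites of Xbp1 lay from 21145315 to 21145363, with scores from 0.653 to 3.56.

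On the strand with most of each gene's sites, crc, the fly ATF4, had the highest scores of the 9 genes. The median over its 53 sites was 4.77 (quartiles 1.71 and 11.4), above the median score of 86.0% of targets. In the top 25% of the whole list were 22 of its sites (41.5%, 28.1 to 55.9), against 22.4% of the 250 member sites, crc included. No other member had a larger share, and the shares were 21.1% for Atf3, 17.2% for kay, 14.8% for Xbp1 and 4.55% for cnc. The crc values include 37 sites that also lie in the span of another gene, described below. The share of crc in the top 25% was not computed without them.

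The sites of crc formed 2 groups at opposite ends of its span on the plus strand of 2L. The upstream group held 16 sites between 21311767 and 21312007 (30.2%, 18.3 to 44.3), at 10.4% to 13.2% of the span. It contained the highest score, 17.6 at 21311777, and the nearly equal score of 17.5 at 21311887, each above at least 94% of the list. The downstream group held 37 sites between 21318295 and 21319282. Its densest stretch of 100 nt, from 21319197, held 15 sites, a number that 91.0% of targets did not reach in any 100 nt, and cluster medians there ran from 11.4 to 13.6. No site lay between the groups.

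The downstream group of crc is shared with another gene. CG46314, also on the target list, lies within the span of crc, and all 37 downstream sites fall in both spans, so they cannot be assigned to crc alone. The 16 upstream sites lie in no other gene span. With these alone, crc had 4.58 sites per kb over the part of its span outside CG46314, a median score of 4.01 and the same highest score of 17.6.

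Atf3, a bZIP factor that acts in stress and immune signalling, carried the most sites of the 9 genes. All 114 lay on the minus strand of X, between 1242817 and 1274684, and no other gene span overlapped them. A group of 10 sites was close to the upstream end, from 1274684 to 1274546, with scores from 0.515 to 6.61 and a median of 3.78. A middle group of 23 sites followed between 1251985 and 1251232, at 71.6% to 73.9% of the span. The other 81 sites (71.1%, 61.8 to 79.2) were spread from 1247758 to 1242817.

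Sites of Atf3 were many and of middling score. They formed 40 clusters, none of more than 7 sites. The highest score was 15.3 at 1244489, the next 11.8 at 1242904 and 11.5 at 1245290, and the gene's median of 2.64 was close to that of the list. The medians of the upstream, middle and downstream groups, 3.78, 2.24 and 2.60, differed little beside the range within each, which in the downstream group ran from 0.0670 to 15.3. Its fullest 100 nt, from 1242817, held 13 sites in the last stretch of the span, a number that 82.8% of targets did not reach. Of its 113 gaps, 58 were of 1 nt (51.3%, against 50.2% over protein-coding targets).

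**Figure D3:**
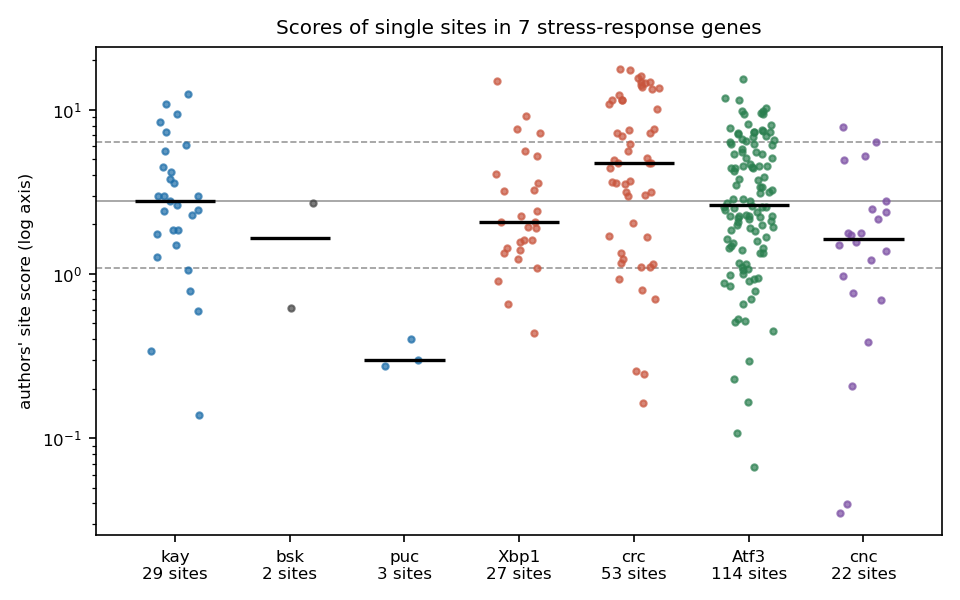
Score of every FMRP site (y axis, log) in the 7 stress-response genes with sites; each point is a site, black bars are the gene's median, and grey lines mark the median (solid) and quartiles (dashed) of all 60497 sites. crc reaches above the upper quartile most often, and the 3 sites of puc lie below the lower quartile.

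In the oxidative stress pair, cnc, the fly Nrf2, was a target with 22 sites on the minus strand of 3R, while Keap1, its inhibitor, had no site in its span or within 2000 nt of it. All 22 sites of cnc lay in the last 10% of a span of 41.1 kb, between 23188518 and 23185890. They formed 4 clusters. The 2 largest held 10 sites from 23186886 to 23186906 and 8 sites from 23185890 to 23185913, and the last of these contained the highest score, 7.90 at 23185892. The cluster farthest upstream, at 23188517 and 23188518, scored 0.0394 and 0.0351, among the lowest values of the members.

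Scores of cnc were low. Its median of 1.64 was above that of 26.0% of targets, and 4 of its 22 sites reached the median of the list. The span of cnc held a further pair of sites on the opposite strand, at 23200057 and 23200058, which no other gene span covers. The second of them scored 29.7, more than any site on the main strand of the 9 genes and more than 97.6% of the list. Just outside the spans, 943 nt from cnc and 758 nt from kay, a pair of opposite-strand sites reached scores of 8.13 and 19.0 respectively. The pair near cnc lies in the spans of Irk1 and CG46310, both targets with 2 sites, and the pair near kay in no gene span. Which RNA these opposite-strand sites belong to was not tested.

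A downstream position in the genomic span was common to several members. Spans include introns and exons were not used, so place in the span is not place in the mRNA. In kay 89.7% of sites lay in the last 33.3% of the span, in Atf3 91.2%, in crc 69.8% and in cnc 100%. All of those crc sites are the ones shared with CG46314, and of the 16 crc sites in no other span none lay there. Pooled over the 5 genes with at least 20 sites, 196 of 245 sites (80%, 74.4 to 84.8) did so, and 159 of 208 (76.4%, 70.1 to 82.0) without the shared crc sites, an alternative chosen after seeing the data. The interval treats sites as independent although many lie in runs, and Atf3 contributes 104 of the 196. Over the 695 protein-coding targets with at least 20 sites, the median share in the last 33.3% was 57.6% (quartiles 36.4 and 80). Thus kay, Atf3 and cnc lay above the upper quartile, crc within the quartiles and Xbp1 below the lower one. In the last 10% of the span the median over these 695 targets was 16.2% of sites, with 89.7% in kay, 56.6% in crc, 51.8% in Atf3 and none in Xbp1.

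Sites of these genes came in short runs, as in other targets. Of the 243 gaps between neighbouring sites in a gene, 129 were of 1 nt (53.1%, against 50.2% over protein-coding targets). The longest run was 6 bases in Xbp1, from 21143945 to 21143950, and also 6 in crc, from 21319079 to 21319084. Scores on adjacent bases differed by a median of 1.77 times in the members and 2 times in targets. Joining neighbouring sites reduced the 250 sites to 81 clusters over the 7 genes.

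The members were then set in their pathways. Over all protein-coding genes 11.2% were targets, a share to which the lists below are not matched by span. Of 23 JNK pathway genes, 6 were targets (26.1%, 10.2 to 48.4), and without the 4 members 4 of 19. The upstream kinase gene msn had 193 sites, raw, a negative regulator of JNK signalling, 92, the adaptor gene Traf4 37 and hep, whose product phosphorylates JNK, 28. egr, the TNF ligand, had 3 sites and was not a target, nor were its receptor genes grnd and wgn or the adaptor gene Traf6, which had none. Mkk4, the other kinase gene directly upstream of JNK, had 3 sites with scores up to 0.889 and was not a target. From the kinase msn down to AP-1, site numbers were thus 193 for msn, 28 for hep, 2 for bsk, 29 for kay and 0 for Jra. These genes differ in span, and longer genes tend to hold more sites. Per kb of span the values were 6.09 for msn, 2.49 for hep, 0.667 for bsk, 1.03 for kay and 0 for Jra. Of the other kinase genes upstream of JNK on the list, slpr had 1 site, and Tak1, Ask1 and wnd had none.

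**Figure D4:**
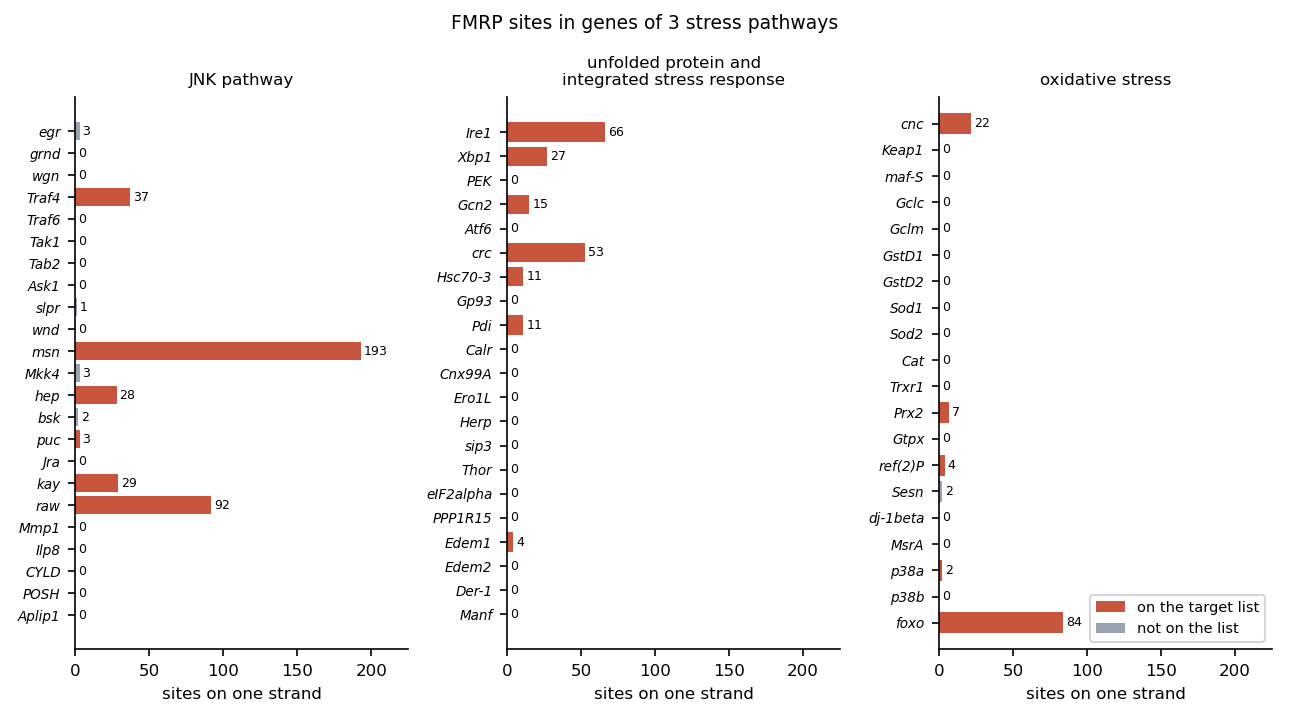
Number of FMRP sites on one strand (bars, from 0) for each gene of the JNK, unfolded-protein and oxidative stress lists, coloured by presence on the target list. Most genes of each list are at 0, and a few regulators such as msn, raw, Ire1, crc and foxo hold most sites. Counts are not adjusted for span.

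In the unfolded-protein and integrated stress response, 7 of 21 genes were targets (33.3%, 14.6 to 57.0), and without Xbp1 and crc 5 of 19. Ire1, whose product splices the Xbp1 mRNA, had 66 sites at 8.94 per kb with a highest score of 13.4, and 3 of the 66 lay in another gene span as well. Sites were thus present on both the splicing enzyme's RNA and its substrate. Gcn2, one of the kinases that phosphorylate eIF2alpha, had 15 sites with a median score of 0.352, while the other such kinase gene, PEK, had none. The chaperone genes Hsc70-3 and Pdi had 11 each and Edem1, which acts in the degradation of misfolded proteins, 4. The third sensor gene, Atf6, the chaperone gene Gp93 and 12 others had no site.

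Of 20 oxidative stress genes, 5 were targets (25%, 8.66 to 49.1), and without cnc and Keap1 4 of 18. The stress-responsive forkhead factor gene foxo had 84 sites, the peroxiredoxin gene Prx2 7, the autophagy receptor gene ref(2)P 4 and the kinase gene p38a 2. Per kb of span this was 2.71 for foxo, 3.22 for Prx2, 1.30 for ref(2)P and 1.05 for p38a. maf-S, the dimer partner of cnc, had no site. Neither had the detoxifying enzyme genes Gclc, Gclm, GstD1, Sod1, Sod2 and Cat.

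bZIP factors are the protein class of kay, Jra, Atf3, crc, Xbp1 and cnc. A list of 20 of them, chosen by name and not a full account of the class, had 10 targets (50%, 27.2 to 72.8). Without the 6 members it had 5 of 14 (35.7%). The clock gene Pdp1 had 125 sites, vri, also of the clock, 97, REPTOR, a factor downstream of TOR, 64, Atf-2 5 and CrebB 4. Per kb of span this was 2.24 for Pdp1, 4.35 for vri, 2.51 for REPTOR, 3.57 for Atf-2 and 0.348 for CrebB. No site lay in 9 of the 20, among them Jra, Atf6, maf-S and tj. Among the 7 MAP kinase genes, only p38a was a target (14.3%, near the 11.2% of all protein-coding genes). It had 2 sites of scores up to 0.0134, lower than those of bsk, which was not a target. rl, the ERK kinase gene, had no site over 54.5 kb.

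The labelled cell type was checked by its markers, beside the 11.2% of all protein-coding genes that were targets. Of 10 progenitor markers 7 were targets, led by zfh2 with 436 sites (28 of them also in another span) and hdc with 313, while N, Su(H) and klu were not. Markers of other cells were also on the list, 4 of 6 for enterocytes, 3 of 6 for enteroendocrine cells, 3 of 4 for muscle, 3 of 4 for fat body, 1 of 3 for neurons and 0 of 2 for haemocytes. All sites of the progenitor marker mira (82), the enteroendocrine marker Dh31 (20) and the only neuronal target, elav (24), also lie in other gene spans and cannot be assigned to these genes alone. In whole flies the cell type behind a site on a widely expressed stress gene cannot be told from these lists. The part of other cells in the members' sites was not tested.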

How the data were processed

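Per the submitters' processing notes, STAR 2.7.3a, cutadapt 2.9, SAMtools 1.10, UMI-tools and DESeq2 were used, in unstated roles. The caller of the sites, the genome build, any pooling and the way the input was used are not stated in the labels or files. The site score was made by the authors and has no stated unit. The deposited target list holds names and no measurement.

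Target names were matched to an NCBI RefSeq table of Release 6: 1753 by symbol, 65 by a synonym and 11 by locus tag. The build was settled from the data: 1823 target genes on the main chromosomes held a site, against 457 and 458 with sites moved by 100000 nt. A site counts for a gene if it lies in its span on the strand with most of the gene's sites. Of 1520 protein-coding genes with at least 5 sites, 92.9% had all on 1 strand. Site positions count from 1, and gene boundaries are not printed. Clusters joined sites at most 20 nt apart, and groups were split at gaps over 1000 nt. Intervals are exact Clopper-Pearson 95% intervals for counting error only. Counting was tested on simulated data, with planted runs recovered in 200 of 200 genes. The planted genes overlapped no other gene and held sites on 1 strand only, so overlapping spans and mixed strands were not tested. Short genes were also left out of it. Python 3.11.15, pandas 2.3.3 and scipy 1.17.1 were used.

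Named genes were the members and, per list, up to 5 others with most sites and core genes without sites. Further genes named for their 0 sites, and Mkk4 and slpr, were chosen after seeing their values. Members and lists were chosen with earlier results of these data known. Base sequences, exons and gene strands were not used here.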

Additional observations from a re-analysis of the deposited data

How the results depend on the processing

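No paired analysis was possible because neither list holds values per library, and for the same reason no library could be left out. Using only sites at or above the median score of the list reduced the 250 sites to 121 and the median density of the 7 genes with sites from 1.03 to 0.498 per kb, as that filter removes the lower-scoring sites by construction. It left 55 sites in Atf3, 38 in crc, 14 in kay, 10 in Xbp1, 4 in cnc and none in bsk and puc. The share of sites in the last 33.3% of the span, 80%, became 70.6% for the last 25%, a smaller part of the gene, 77.7% with the higher-scoring sites and, as an alternative chosen after seeing the data, 76.4% without sites in another gene span. Counting either strand gave 252 sites, extending spans by 500 nt gave 250, and leaving out sites in another gene span gave 213, with crc falling from 53 to 16 and no other gene changing. With at least 1 site as the rule 7 genes would be bound, and with at least 3 sites 6. The 81 clusters became 94 with a joining distance of 10 nt and 54 with 50 nt. The median of the gene median scores, 2.07, became 2.98 with the highest site of each cluster. The alternatives on exonic length and base sequence were not run. Unknown depth limits what the absence of sites in Jra and Keap1 can show.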
